A study of Arabidopsis thaliana with 24 samples.

Results

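The 7 loci described here encode enzymes of tryptophan synthesis in Arabidopsis thaliana and were taken by their locus identifiers from the 32678 loci of the deposited count tables. They are the anthranilate synthase alpha subunit ASA1 (AT5G05730), the phosphoribosyltransferase PAT1 (AT5G17990), the isomerase PAI1 (AT1G07780), the indole-3-glycerol phosphate synthase IGPS (AT2G04400), the tryptophan synthase alpha subunit TSA1 (AT3G54640) and its beta subunits TSB1 (AT5G54810) and TSB2 (AT4G27070). All 7 had counts in every library, from 208 for PAI1 to 21406 for TSB1, and all 7 passed the filter on low counts, as did 20554 of the 32678 loci.

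The study sequenced RNA of whole rosettes of 3-week-old plants, pooled over rosettes, in 24 libraries. Its 4 lines were the natural accessions C24, Te and Col-0, the last being the reference strain of the species, and CT101, whose origin the labels do not give. Plants of each line were left as controls or given ozone at 350 ppb for 2 h, which made 8 groups of 3 biological replicates. The labels do not state whether the 3 replicates of a group came from separate exposures, and they give more rosettes pooled than plants grown for a genotype, so that standard errors and p-values measure the spread between these pooled samples. The time from exposure to harvest is not given in the sources used here. Libraries held 13633768 to 25789925 counts. The leaf label was checked by 5 photosynthesis genes (RBCS1A, LHCB1.1, LHCB2.1, RCA and PSBO1), whose summed level was 41630 to 58010 counts per 1e6 (CPM) in the 12 controls and 17680 to 37090 CPM in the 12 ozone libraries. Root markers (9 genes) summed to at most 0.718 CPM and flower markers (7 genes) to at most 3.52 CPM in any library. Of the root markers, 2 had no count in any control and 3 had none in any ozone library. Ozone replicate 2 of C24 lay nearer to the controls than the other C24 ozone libraries on the first principal component (58.1% of the variance), at 41.4 against 95.1 and 109. Results that involve this group are given with and without this library where a call changes. The C24 controls lay at -55.8, -50.1 and -58.3 on this component, and the controls of the other lines from -123.6 to -86.2. These marker sums were scaled by library totals alone, while all other CPM carry TMM scaling. In whole-rosette libraries fewer cells of a type and less RNA per cell cannot be told apart.

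Tryptophan is made in plastids from chorismate, the end product of the shikimate route. Anthranilate synthase, an enzyme of alpha and beta subunits that tryptophan inhibits, turns chorismate into anthranilate. PAT1 and PAI1 then attach and rearrange a sugar phosphate, IGPS closes the indole ring, TSA1 releases indole and the beta subunit joins it to serine. In Arabidopsis leaves tryptophan also feeds indole glucosinolates, the defence compound camalexin and auxin, and several genes of the route are known to be induced by pathogens.

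Ozone raised 5 of the 7 genes in each of the 4 lines: ASA1, PAT1, IGPS, TSA1 and TSB1. For each of these 5 genes the lowest of the 12 ozone libraries lay above the highest of the 12 controls. The share of all genes with the same separation was not counted, so it cannot be read as particular to these genes. TSB2 passed the test in no line, while PAI1 fell in C24 and CT101. By edgeR's quasi-likelihood test at a Benjamini-Hochberg adjusted p under 0.05, 25.6%, 32%, 32.9% and 30% of all genes tested were higher under ozone for C24, Te, CT101 and Col-0. The share of all genes that were lower was 22.2%, 30.9%, 32.4% and 26.9%, and in either direction 47.8%, 62.9%, 65.3% and 56.9%. The median log2 fold change of the 7 genes was 1.54, 2.88, 2.58 and 2.57 in the same order, where the median over all genes lay between -0.03 and -0.01. The leaf marker sum fell in the same libraries, and its part in these changes was not tested.

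**Figure D1:**
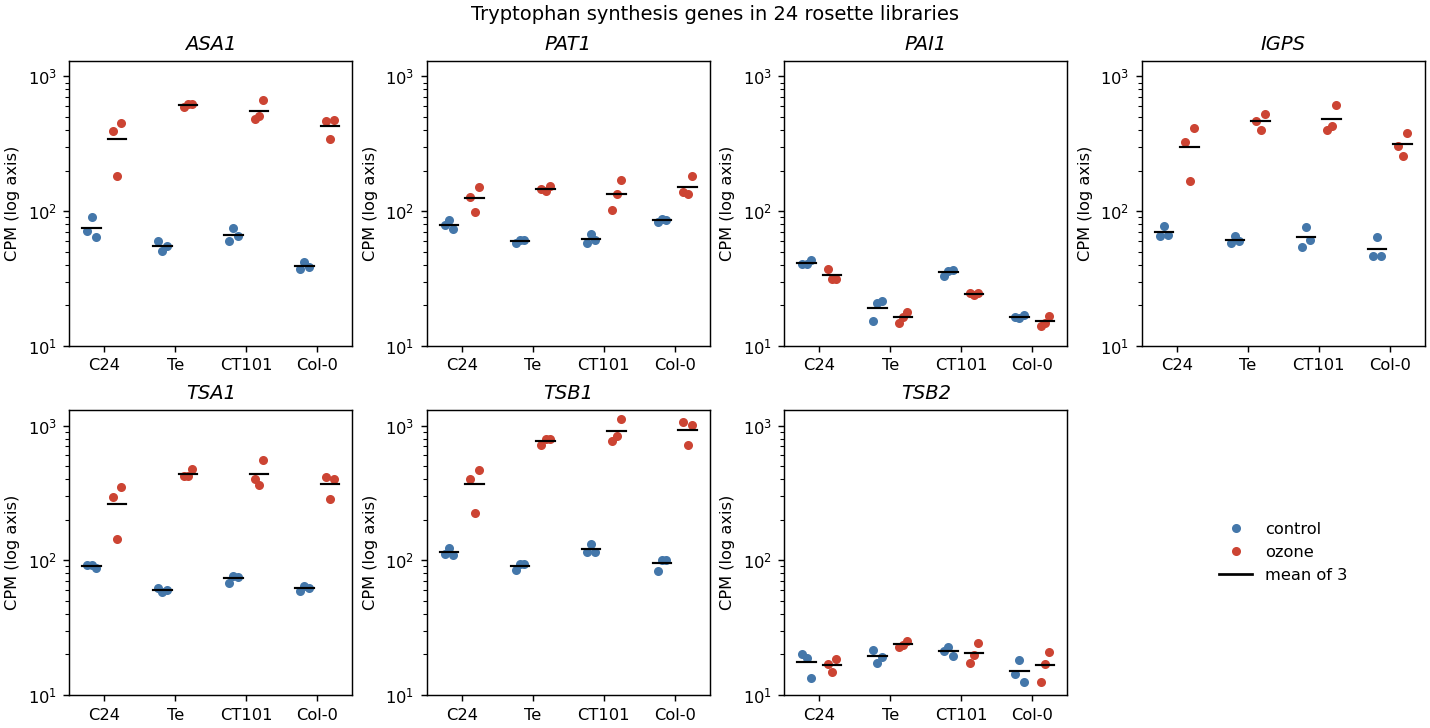
Level of each of the 7 genes in all 24 libraries, in CPM on a log axis, by line, with blue points for control and red points for ozone replicates and a black line at the mean of 3. The red points of ASA1, PAT1, IGPS, TSA1 and TSB1 lie above all blue points of the same gene, while those of TSB2 stay between 12.5 and 25.2 CPM and those of PAI1 between 14.1 and 36.9 CPM.

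ASA1 carries the catalytic alpha subunit of anthranilate synthase, the committed step that tryptophan inhibits (chr5:1719557-1722910, minus strand, TAIR10). In C24 it stood at 71.2, 90.1 and 64.0 CPM in control replicates 1 to 3 and 392, 182 and 452 CPM in ozone replicates 1 to 3. In Te it stood at 59.7, 51.0 and 54.8 CPM in control replicates 1 to 3 and 595, 621 and 628 CPM in ozone replicates 1 to 3. In CT101 it stood at 60.3, 74.5 and 65.0 CPM in control replicates 1 to 3 and 479.5, 507 and 666 CPM in ozone replicates 1 to 3. The ozone libraries of these lines were all above their controls, and replicate 2 of C24 was the lowest of the 12 ozone libraries. In Col-0, where the controls were lowest, ASA1 stood at 36.9, 42.1 and 38.7 CPM in control replicates 1 to 3 and 466, 342 and 475 CPM in ozone replicates 1 to 3. Log2 fold changes were 2.19 ± 0.24 for C24, 3.48 ± 0.25 for Te, 3.05 ± 0.24 for CT101 and 3.44 ± 0.25 for Col-0 (± SE), with adjusted p of 3.9e-07, 4.6e-10, 1.9e-09 and 8.1e-10. The group means ran in the order Te, CT101, Col-0 and C24 under ozone and C24, CT101, Te and Col-0 in controls. Te and CT101 ozone libraries overlapped, as did those of Col-0 and C24, and among controls those of C24 and CT101.

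ASA2 (AT2G29690), the other alpha subunit gene, had control means of 24.8 to 27.3 CPM. Its log2 fold changes were -0.03, -0.23, -0.35 and -0.18 for C24, Te, CT101 and Col-0, and it passed the test in CT101 alone (adjusted p = 0.019). The coding sequences of ASA1 and ASA2 were 68.2% identical, with a longest identical run of 16 bases, and no 50-base window of the exons of either occurred elsewhere in the genome. ASB1 (AT1G25220), the main beta subunit gene, which supplies ammonia to the alpha subunit, rose in all lines, by log2 2.65, 2.70, 2.35 and 3.89. Its level went from 22.8 ± 3.16 to 143 ± 64.1 CPM in C24 and from 21.2 ± 1.52 to 315 ± 40.6 CPM in Col-0 (mean ± SD, n = 3). ASB2 (AT5G57890) rose by 1.80, 1.67, 1.49 and 2.25. The 4 further beta subunit copies on chromosome 1 (AT1G24807, AT1G24909, AT1G25083 and AT1G25155) also passed in all lines, AT1G24807 by 2.70, 2.78, 2.43 and 3.55. All 50-base windows of these 4 copies occur in another locus, as do 42.1% of those of ASB1 and 17.6% of those of ASB2, so the split of counts among the 6 beta subunit genes is uncertain.

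PAT1 transfers the phosphoribosyl group to anthranilate (chr5:5957213-5959905, plus strand). It had the smallest rise of the 5 genes. In C24 its libraries were at 78.3, 85.3 and 73.9 CPM in control replicates 1 to 3 and 127, 98.8 and 151 CPM in ozone replicates 1 to 3. The Te libraries were at 58.4, 61.1 and 60.9 CPM in control replicates 1 to 3 and 147, 141 and 153 CPM in ozone replicates 1 to 3. Control and ozone libraries did not overlap in any line, and the spread among ozone replicates was widest in CT101, from 101 to 169 CPM. The log2 fold change was 0.67 ± 0.16 for C24, 1.29 ± 0.16 for Te, 1.12 ± 0.16 for CT101 and 0.82 ± 0.16 for Col-0, with adjusted p of 0.0019, 7.1e-07, 3.7e-06 and 0.00018. Ozone means were 135 ± 33.9 CPM in CT101 and 152 ± 25.5 CPM in Col-0 against 62.2 ± 4.91 and 85.9 ± 2.21 CPM in their controls. The ozone groups of all neighbours in the order Col-0, Te, CT101 and C24 overlapped. The last bases of PAT1 overlap AT5G18000 on the other strand by 6 bases, and that locus had 74 counts in the 24 libraries together, at most 8 in any one.

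PAI1, the phosphoribosylanthranilate isomerase, was the member that fell in C24 and CT101 (chr1:2410056-2412677, minus strand). C24 libraries held 40.5, 40.4 and 43.1 CPM in control replicates 1 to 3 and 36.9, 31.6 and 31.5 CPM in ozone replicates 1 to 3. CT101 libraries held 33.2, 35.9 and 36.6 CPM in control replicates 1 to 3 and 24.8, 23.9 and 24.6 CPM in ozone replicates 1 to 3. In both lines every ozone library was below every control. Te libraries held 15.2, 20.9 and 21.4 CPM in control replicates 1 to 3 and 14.8, 16.4 and 17.8 CPM in ozone replicates 1 to 3, and Col-0 libraries 16.3, 15.98 and 16.9 CPM in control replicates 1 to 3 and 14.1, 14.9 and 16.6 CPM in ozone replicates 1 to 3, with overlap in both. Ozone against control gave log2 fold changes of -0.31 ± 0.11 for C24, -0.23 ± 0.11 for Te, -0.53 ± 0.11 for CT101 and -0.11 ± 0.11 for Col-0, with adjusted p of 0.026, 0.083, 3e-04 and 0.43. No gene of the 7 was lower in Te or Col-0 by edgeR, and none had an unadjusted p under 0.05 in that direction there, nor did DESeq2 call PAI1 in either line. The fall in C24 rests on few libraries: without control replicate 1 or 3 or ozone replicate 2 or 3 the adjusted p was 0.051, 0.068, 0.07 and 0.1. In Te, PAI1 passed the test without control replicate 1 (log2 fold change -0.36, adjusted p = 0.0046).

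PAI1 shares sequence with PAI2 (AT5G05590) and PAI3 (AT1G29410), genes for the same enzyme. PAI1 and PAI2 have 828 coding bases each, of which 99.4% are identical with a longest run of 438, and 70.3% of the 50-base windows of the PAI1 exons occur elsewhere in the genome. None of the windows of the other 6 genes did. Counts of PAI1 are uncertain for this reason, while PAI3 shares 6.41% of its windows. PAI2 had log2 fold changes of -0.36, -0.02, -0.46 and 0.36 for C24, Te, CT101 and Col-0, with adjusted p of 0.0079, 0.89, 0.00071 and 0.0085, so that it fell in the same lines as PAI1 and rose in Col-0. PAI3 had changes of -0.29, -0.76, -0.89 and -0.59 and passed in all but C24. With the counts of the 3 genes summed, Te also passed (log2 fold change -0.25, adjusted p = 0.025). That sum leaves out AT1G07770 and AT5G05580, so it does not remove the uncertainty.

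IGPS closes the indole ring (chr2:1531148-1533737, plus strand). In C24 libraries it was at 65.1, 78.1 and 66.7 CPM in control replicates 1 to 3 and 324, 169 and 413 CPM in ozone replicates 1 to 3. In Te libraries it was at 57.6, 65.1 and 59.6 CPM in control replicates 1 to 3 and 470.4, 399 and 529.7 CPM in ozone replicates 1 to 3. CT101 and Te were highest under ozone and overlapped. In CT101 the values were 54.6, 76.8 and 60.8 CPM in control replicates 1 to 3 and 397, 427 and 613 CPM in ozone replicates 1 to 3. In Col-0 they were 46.6, 63.8 and 46.8 CPM in control replicates 1 to 3 and 306, 255 and 378 CPM in ozone replicates 1 to 3. Log2 fold changes were 2.11 ± 0.25 for C24, 2.94 ± 0.26 for Te, 2.90 ± 0.26 for CT101 and 2.58 ± 0.26 for Col-0, with adjusted p of 1.4e-06, 6.9e-09, 8.3e-09 and 5.1e-08. The 4 control groups overlapped with their neighbours in the order C24, CT101, Te and Col-0. IGPS overlaps AT2G04410 on the other strand by 41 bases, and the strand setting of the counting is not stated. AT2G04410 had mean levels of 35.0 CPM in controls and 32.7 CPM under ozone, with log2 fold changes of -0.03, -0.05, -0.16 and -0.18. The paralog AT5G48220 fell in all 4 lines, by log2 -0.52, -0.68, -0.92 and -0.56, with adjusted p of 0.013, 0.0012, 6.2e-05 and 0.0058. Its mean level moved from 61.4 ± 8.79 to 38.5 ± 3.89 CPM in Te.

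The bases just before the annotated starts of 4 genes are shown, of which ASA1, IGPS and TSA1 rose together and TSB2 passed in no line, so that they were picked by their response. They are the 250 bases upstream of the RefSeq gene start (TAIR10.1), written 5′ to 3′ on the gene's strand. Gene positions given with each gene are those of the deposited tables, from which the RefSeq starts differ for some genes, TSB2 among them. Capitals mark the W box core TTGAC (or GTCAA, the same motif on the other strand), bound by WRKY factors, and the palindromic G box CACGTG, bound by bZIP, bHLH and related factors.
ASA1, chr5:1722934-1723183, minus strand: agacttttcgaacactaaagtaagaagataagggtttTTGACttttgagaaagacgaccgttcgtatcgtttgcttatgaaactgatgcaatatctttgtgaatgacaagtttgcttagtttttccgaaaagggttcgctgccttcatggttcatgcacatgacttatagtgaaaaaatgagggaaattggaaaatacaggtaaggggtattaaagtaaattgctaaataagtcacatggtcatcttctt
IGPS, chr2:1530898-1531147, plus strand: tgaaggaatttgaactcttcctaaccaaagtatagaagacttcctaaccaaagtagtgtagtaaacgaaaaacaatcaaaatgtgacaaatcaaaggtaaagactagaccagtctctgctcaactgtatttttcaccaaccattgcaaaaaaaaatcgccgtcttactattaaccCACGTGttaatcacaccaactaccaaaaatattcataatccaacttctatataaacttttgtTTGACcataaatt
TSA1, chr3:20225524-20225773, minus strand: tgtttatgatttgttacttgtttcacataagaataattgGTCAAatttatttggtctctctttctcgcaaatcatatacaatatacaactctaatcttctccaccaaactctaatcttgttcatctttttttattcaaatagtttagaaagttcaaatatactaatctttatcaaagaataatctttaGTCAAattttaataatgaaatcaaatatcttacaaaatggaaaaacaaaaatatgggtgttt
TSB2, chr4:13586018-13586267, plus strand: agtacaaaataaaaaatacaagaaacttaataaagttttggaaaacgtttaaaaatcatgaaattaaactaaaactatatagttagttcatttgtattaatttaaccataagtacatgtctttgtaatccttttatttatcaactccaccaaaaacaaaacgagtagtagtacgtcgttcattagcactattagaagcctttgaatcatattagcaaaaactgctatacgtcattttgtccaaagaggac

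A W box core lay in this window of 5 of 6 genes (ASA1, PAT1, PAI1, IGPS and TSA1, but not TSB2), where 44.9% of 27443 genes hold one in a window of this length. PAT1 and TSA1 held 2 each, and PAI1, which fell in C24 and CT101 only, held 1 at position -136. Of these 6, IGPS alone held a G box upstream, against 6.49% of all genes, with its first base at position -75. The GCC box core GCCGCC, a motif of ERF factors, was found before none of the 6, against 1.87% of all genes. TSB2 held none of the 3 motifs in these 250 bases. No motif overlapped another, and both strands were searched.

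TSA1, the alpha subunit that splits indole from indole-3-glycerol phosphate (chr3:20223148-20225523, minus strand), was at 91.4, 93.0 and 88.2 CPM in control replicates 1 to 3 and 295, 143 and 353 CPM in ozone replicates 1 to 3 in C24. Te libraries showed 62.1, 57.9 and 59.6 CPM in control replicates 1 to 3 and 422, 419 and 478 CPM in ozone replicates 1 to 3. CT101 libraries showed 68.2, 76.6 and 75.4 CPM in control replicates 1 to 3 and 403, 361 and 555 CPM in ozone replicates 1 to 3. All ozone libraries exceeded all controls, with C24 ozone replicate 2 the lowest of them. Col-0 libraries showed 59.1, 64.5 and 62.6 CPM in control replicates 1 to 3 and 417, 287 and 403 CPM in ozone replicates 1 to 3. The log2 fold change was 1.54 ± 0.22 for C24, 2.88 ± 0.23 for Te, 2.58 ± 0.23 for CT101 and 2.57 ± 0.23 for Col-0, with adjusted p of 1.4e-05, 2.1e-09, 8e-09 and 1.2e-08. Neighbouring groups overlapped along the whole ozone order of Te, CT101, Col-0 and C24. C24 had the highest controls, which overlapped with those of no other line. INS (AT4G02610), the free indole synthase related to TSA1, fell in all 4 lines by -0.48, -0.78, -0.68 and -0.70 (adjusted p = 0.0076, 6.3e-05, 0.00023 and 0.00021).

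TSB1 and TSB2 encode the beta subunit, which makes tryptophan from indole and serine, and they behaved differently under ozone. TSB1 (chr5:22264594-22266785, minus strand) in C24 was at 111, 124 and 109 CPM in control replicates 1 to 3 and 402, 224 and 470.3 CPM in ozone replicates 1 to 3. In Te it was at 85.3, 94.0 and 93.1 CPM in control replicates 1 to 3 and 718, 793 and 792 CPM in ozone replicates 1 to 3. In CT101 it was at 115, 132 and 116 CPM in control replicates 1 to 3 and 769, 839.7 and 1116 CPM in ozone replicates 1 to 3. The ozone libraries of Te and CT101 lay above all those of C24. In Col-0 TSB1 was at 83.7, 101 and 99.7 CPM in control replicates 1 to 3 and 1055, 718 and 1005 CPM in ozone replicates 1 to 3. Ozone against control gave log2 fold changes of 1.67 ± 0.20 for C24, 3.08 ± 0.21 for Te, 2.91 ± 0.21 for CT101 and 3.29 ± 0.22 for Col-0, with adjusted p of 1.7e-06, 3.5e-10, 7.3e-10 and 2.9e-10. Under ozone Col-0, CT101 and Te were the highest groups, of which neighbours in this order overlapped, and C24 was the lowest.

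TSB2 (chr4:13586340-13588821, plus strand) was at 20.2, 18.9 and 13.4 CPM in control replicates 1 to 3 and 17.1, 14.8 and 18.5 CPM in ozone replicates 1 to 3 in C24. In Te it was at 21.7, 17.3 and 19.0 CPM in control replicates 1 to 3 and 22.7, 23.7 and 25.2 CPM in ozone replicates 1 to 3. Te was the line in which the ozone libraries of TSB2 did not overlap with the controls. In CT101 it was at 21.1, 22.6 and 19.4 CPM in control replicates 1 to 3 and 17.3, 19.8 and 24.4 CPM in ozone replicates 1 to 3. In Col-0 it was at 14.3, 18.3 and 12.5 CPM in control replicates 1 to 3 and 12.5, 17.0 and 20.7 CPM in ozone replicates 1 to 3. Log2 fold changes were -0.06 ± 0.18 for C24, 0.30 ± 0.18 for Te, -0.04 ± 0.18 for CT101 and 0.15 ± 0.18 for Col-0, with 95% intervals of -0.44 to 0.32, -0.08 to 0.68, -0.42 to 0.34 and -0.23 to 0.53 and adjusted p of 0.82, 0.15, 0.86 and 0.5. TSB2 had no call by DESeq2 either (adjusted p = 0.87, 0.19, 0.97 and 0.59), and no unadjusted p under 0.05 by edgeR. In a separate fit of the 6 Te libraries it passed (log2 fold change 0.32, adjusted p = 0.037). Of 2 further loci annotated for this reaction, TSB type 2 (AT5G38530), a beta subunit of another type, had changes of -0.05, 0.36, 0.19 and 0.34 and passed in Te (adjusted p = 0.02) and Col-0 (0.033). AT5G28237, annotated with a beta chain domain, had -0.49, 4.16, 0.81 and 3.33 and passed in the same lines (adjusted p = 0.00035 and 0.0029), at means of 1.95 CPM in Te and 1.22 CPM in Col-0 under ozone against 0.1003 and 0.1085 CPM in controls.

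The beta subunit genes differ in sequence along their length. Their coding sequences, of 1413 and 1428 bases, aligned at 85.4% identity over 1404 bases with a longest identical run of 35, and no 50-base window of the exons of either occurred elsewhere. The following 90 coding bases, read across an intron from RefSeq TAIR10.1, show how such windows differ. Capitals mark the 13 bases that differ between the genes.
TSB1, chr5:22266066-22266405, minus strand, coding bases 334 to 423: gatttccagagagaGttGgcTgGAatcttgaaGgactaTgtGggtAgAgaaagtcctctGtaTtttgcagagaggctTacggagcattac
TSB2, chr4:13586912-13587376, plus strand, coding bases 349 to 438: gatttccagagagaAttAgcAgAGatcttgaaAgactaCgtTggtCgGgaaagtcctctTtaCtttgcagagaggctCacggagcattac

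The ratio of TSB1 to TSB2 counts within a library, which no scaling between libraries can change, rose in every line without overlap of the groups. It went from 6.74 ± 1.30 to 21.4 ± 5.46 in C24, from 4.75 ± 0.768 to 32.2 ± 1.14 in Te, from 5.75 ± 0.267 to 44.2 ± 1.62 in CT101 and from 6.44 ± 1.33 to 58.3 ± 22.7 in Col-0 (mean ± SD, n = 3). On the log2 scale the ozone minus control difference was 1.65, 2.77, 2.94 and 3.13. Its mean over the 4 lines was 2.62, with an exact permutation p of 1.25e-05 (2-sided, treatment permuted within lines over 160000 arrangements, the smallest p they can give, 2.5e-05 adjusted over 2 ratios) and all 12 ozone libraries above all 12 controls. The ratio of TSA1 to TSB1, the subunits of one enzyme complex, fell from 0.794 to 0.707 in C24, 0.662 to 0.573 in Te, 0.608 to 0.484 in CT101 and 0.658 to 0.399 in Col-0. The mean log2 difference over the lines was -0.36 (exact permutation p = 2.5e-05, adjusted p = 2.5e-05), and by line -0.17, -0.21, -0.33 and -0.72. Control and ozone values of this ratio overlapped in C24 and not in the other lines.

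**Figure D2:**
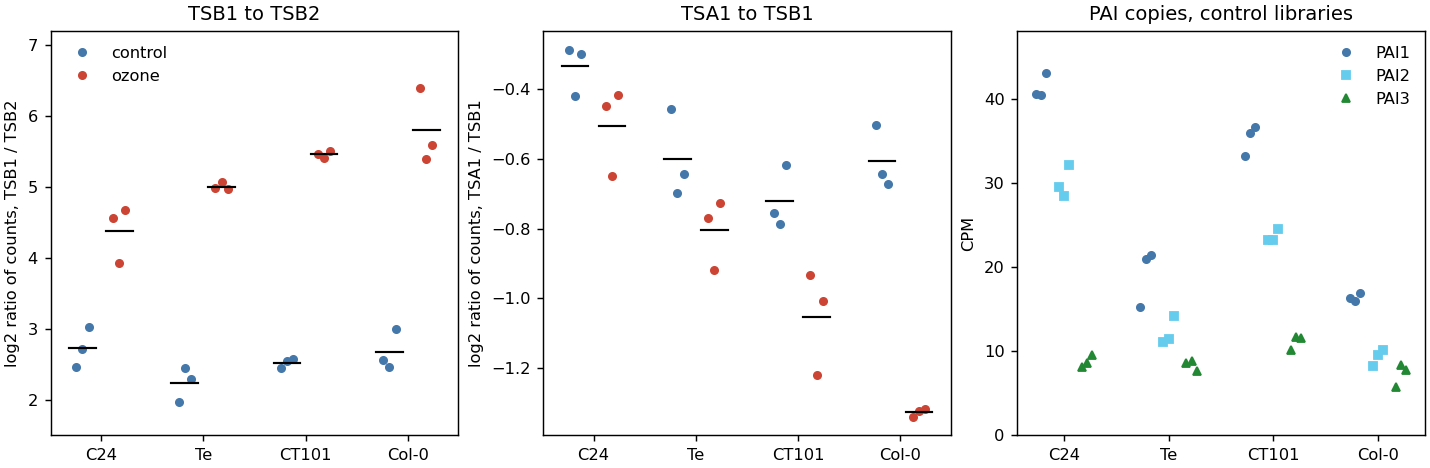
Log2 ratio of counts of TSB1 to TSB2 (left) and of TSA1 to TSB1 (middle) in each library by line, with blue control points, red ozone points and a black line at the mean of 3, and levels of PAI1, PAI2 and PAI3 in the control libraries in CPM (right). The TSB1 to TSB2 ratio rose in all lines, with log2 differences of 1.65 in C24 to 3.13 in Col-0, and PAI1 and PAI2 are both higher in C24 and CT101 than in Te and Col-0.

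Levels of different genes were compared as CPM per 1000 exon bases. The exons are those of RefSeq, whose ends can differ from those used for counting. In controls of C24 TSB1 and TSA1 were highest, at 64.2 and 62.4, and TSB2 lowest at 8.73. The share of TSB1 in the sum of the 7 genes on this scale went from 23.5% to 24.7% in C24, 24.7% to 30.2% in Te, 27.3% to 34.4% in CT101 and 25.8% to 40.7% in Col-0. PAT1 went from 13.8% to 7.57%, 13.9% to 4.91%, 11.9% to 4.32% and 19.9% to 5.72%. The summed CPM of the 7 genes, without correction for length, went from 489 ± 37.2 to 1448 ± 528 in C24, 365 ± 4.45 to 2475 ± 129 in Te, 443 ± 38.7 to 2557 ± 532 in CT101 and 366 ± 26.5 to 2219 ± 392 in Col-0 (mean ± SD, n = 3).

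The next comparison asked whether the size of the ozone response differed between lines, as the series pairs C24 and Te for their unlike sensitivity to ozone. C24 had the smaller rise of ASA1, TSA1 and TSB1 than Te. The differences in log2 fold change were 1.29 ± 0.32 for ASA1 (adjusted p = 0.014), 1.34 ± 0.31 for TSA1 (0.0086) and 1.41 ± 0.28 for TSB1 (0.0031), by edgeR's test of the difference itself. These 3 of 7 genes passed where 9.58% of all genes did. PAT1 (0.63 ± 0.22, adjusted p = 0.085) and IGPS (0.83 ± 0.34, adjusted p = 0.14) did not pass, though PAT1 did with the replicate number as a block (0.64, adjusted p = 0.037) and without CT101 ozone replicate 1 (0.045) or 3 (0.047). Without C24 ozone replicate 2, the library with the lowest levels, the differences were 0.99, 1.05 and 1.16 for ASA1, TSA1 and TSB1, with adjusted p of 0.0089, 0.0046 and 0.0025. Without C24 ozone replicate 3 all of ASA1, PAT1, IGPS, TSA1 and TSB1 passed, 5 in all.

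CT101 exceeded C24 in the response of TSA1 by 1.05 ± 0.31 (adjusted p = 0.038) and of TSB1 by 1.24 ± 0.28 (0.011), 2 of 7 against 9.7% of all genes. The TSA1 call was lost, at adjusted p from 0.055 to 0.12, without any 1 of the 6 control libraries of C24 and CT101 or CT101 ozone replicate 1 or 3. It was also lost in a fit of these 4 groups alone (adjusted p = 0.14), as was that of TSB1 (0.07). Without C24 ozone replicate 3, ASA1 (1.11, adjusted p = 0.024) and IGPS (1.08, adjusted p = 0.032) also passed, which made 4.

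Col-0 exceeded C24 in the response of ASA1 by 1.26 ± 0.32 (adjusted p = 0.033) and of TSB1 by 1.62 ± 0.28 (0.0024), 2 of 7 against 3.37% of all genes. The ASA1 call was lost, at adjusted p from 0.059 to 0.11, without C24 control replicate 1 or 2, Col-0 control replicate 1 or 3, or Col-0 ozone replicate 1 or 3. TSA1 differed by 1.04 ± 0.31 without passing (adjusted p = 0.076), though it passed by DESeq2 (0.041), with the replicate block (0.027), without C24 ozone replicate 3 (0.018) or Col-0 ozone replicate 2 (0.032), and without the 4 ozone libraries numbered 2 (0.0068). The 3 comparisons with C24 share its 6 libraries. For ASA1 the controls of Col-0 were themselves lower than those of C24, and the ozone libraries of both lines overlapped.

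Among Te, CT101 and Col-0 no difference in the response of the 7 genes passed edgeR's test, where 0.321%, 0.954% and 1.6% of all genes did for CT101 against Te, Te against Col-0 and CT101 against Col-0. The counts at an unadjusted p under 0.05 were 0, 1 and 1, and DESeq2 called 0 in each. For TSB1 the 95% intervals of the log2 difference were -0.76 to 0.41, -0.80 to 0.38 and -0.97 to 0.20. Of the 13 other tryptophan enzyme genes, 2 differed in response between Col-0 and C24 and 4 between CT101 and Col-0. The response of PAI2 in Col-0 exceeded that in C24 by 0.72 (adjusted p = 0.01) and ASB1 by 1.24 (adjusted p = 0.045). For CT101 minus Col-0 the differences were -0.82 for PAI2 (adjusted p = 0.0068), -1.55 for ASB1 (0.02), -1.56 for AT1G24909 (0.027) and -1.87 for AT1G25083 (0.011), and the counts of all 4 carry the uncertainty of shared sequence.

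**Figure D3:**
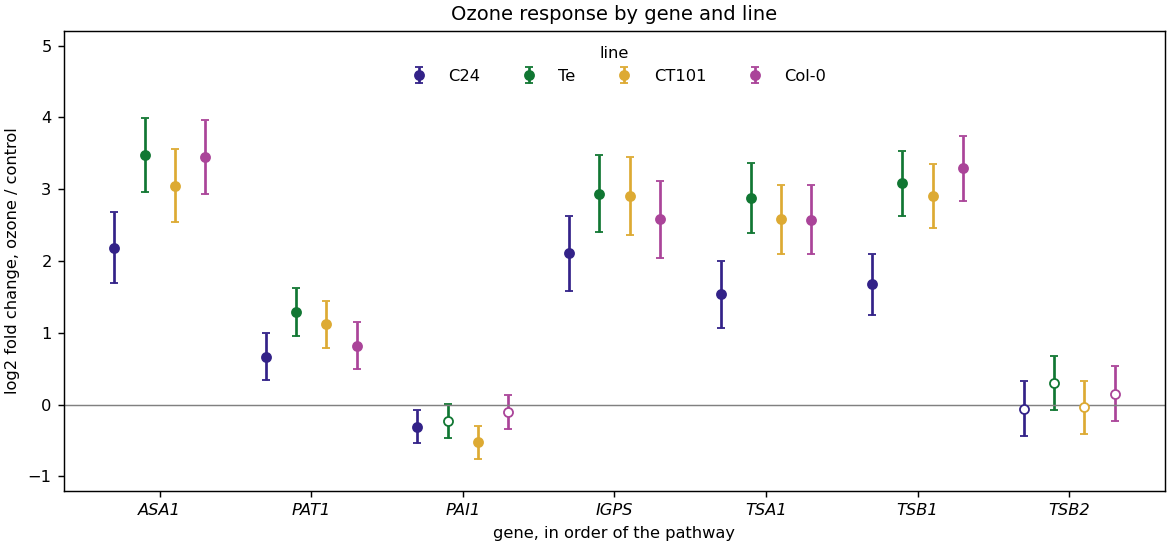
Log2 fold change of ozone against control for the 7 genes in pathway order in each line, with 95% intervals as bars, filled points where the adjusted p was under 0.05 and open points elsewhere. The C24 points of ASA1, PAT1, IGPS, TSA1 and TSB1, at 2.19, 0.67, 2.11, 1.54 and 1.67, lie below those of the other lines. For PAT1 and IGPS no difference in response from C24 passed the test with all libraries. The TSB2 points lie between -0.06 and 0.30.

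Controls of the 4 lines were compared to see how the genes differed without ozone. PAI1 had the widest differences. Relative to C24 its log2 difference was -1.11 ± 0.11 in Te (adjusted p = 1.8e-07) and -1.34 ± 0.11 in Col-0 (adjusted p = 1.5e-08). CT101 exceeded Te by 0.88 ± 0.11 (adjusted p = 1.6e-05) and Col-0 by 1.104 ± 0.113 (adjusted p = 2.4e-07). Its control means were 41.3 ± 1.51 CPM in C24, 35.2 ± 1.79 in CT101, 19.2 ± 3.41 in Te and 16.4 ± 0.449 in Col-0. The near-identical PAI2 had the same order, at 30.0 ± 1.88, 23.6 ± 0.758, 12.2 ± 1.70 and 9.26 ± 0.955 CPM, and the less similar PAI3 had 8.70 ± 0.782, 11.1 ± 0.882, 8.32 ± 0.626 and 7.25 ± 1.32 CPM. Counts of the lines were made on TAIR10, the sequence of Col-0, and the part of line differences in the PAI copies in these values was not tested.

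ASA1 was lower in Col-0 controls than in C24 controls, with a log2 difference of -0.94 ± 0.23 (adjusted p = 0.0041), and higher in CT101 than in Col-0 by 0.76 ± 0.23 (adjusted p = 0.025). The latter call was lost without CT101 control replicate 2 (adjusted p = 0.085), Col-0 control replicate 1 (0.08) or Col-0 control replicate 3 (0.076). TSA1 was lower in Te than in C24, with a log2 difference of -0.60 ± 0.22 (adjusted p = 0.044), a call lost without any 1 of the 6 libraries compared (adjusted p from 0.068 to 0.11), without CT101 or Col-0 control replicate 3 (both 0.05), with RLE factors (0.058) and with no filter (0.066). PAT1 was lower in Te than in Col-0, with a log2 difference of -0.51 ± 0.16 (adjusted p = 0.03), a call lost without any 1 Te control or Col-0 control replicate 2 or 3 (adjusted p from 0.056 to 0.075). PAT1 in CT101 against Col-0 did not pass, with a log2 difference of -0.47 ± 0.16 (adjusted p = 0.051), but passed by DESeq2 (0.036) and with the replicate number as a block (0.023), and in 11 of 31 settings in all. With that block, PAT1 also passed between Te and C24 (log2 difference -0.40, adjusted p = 0.031) and TSA1 between Col-0 and C24 (-0.55, adjusted p = 0.037).

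In all, 2 of the 7 genes passed for Te against C24, where 30.1% of all genes did, and 2 for Col-0 against C24 (26.4%). CT101 against Te gave 1 (5.23%), Te against Col-0 gave 1 (15.8%) and CT101 against Col-0 gave 2 (15.7%). CT101 against C24 gave 0 by edgeR, with 2 at an unadjusted p under 0.05 and 0 by DESeq2, where 16.6% of all genes passed. These comparisons share control libraries with each other and with the ozone comparisons. TSB1 and TSB2 controls passed in none of the 6.

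The genes around the 7 were counted by lists of pathway enzymes, to be read against the 25.6%, 32%, 32.9% and 30% of all genes that rose and the 22.2%, 30.9%, 32.4% and 26.9% that fell for C24, Te, CT101 and Col-0. Of 10 genes of the shikimate route, which supplies chorismate, 7, 7, 9 and 9 rose in the same order of lines and the others did not pass, with median log2 fold changes of 0.49, 0.84, 1.17 and 0.67. The largest changes were those of DHS3, a DAHP synthase at the entry of the route (2.39, 3.69, 3.92 and 2.82), and EPSPS, the target of glyphosate (1.72, 3.11, 3.63 and 2.42). DHS2 (0.25, 0.17, 0.17 and 0.28) and the shikimate kinase SK2 (0.01, 0.17, 0.59 and 0.43) had the smallest. Of the 13 other tryptophan enzyme genes, 6, 8, 6 and 9 rose and 3, 3, 5 and 3 fell, with medians of -0.03, 1.67, 0.81 and 2.25. In each line 6 of those that rose were the beta subunit genes of anthranilate synthase. The split of counts among these 6 is uncertain because of their shared sequence. They are therefore not 6 separate measurements, and the counts and medians of this list carry that limit.

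Phenylalanine and tyrosine are the other products of chorismate. Of 12 genes of that branch, 6, 5, 6 and 4 rose and 2 fell in each line, with medians of 0.38, 0.16, 0.43 and 0.27. The share that rose in Col-0 was near that of all genes, and the shares that fell were below it. The arogenate dehydratases ADT4 (2.18, 3.47, 3.22 and 3.36) and ADT5 (2.31, 3.49, 4.12 and 2.13) rose most. TYRA2, an arogenate dehydrogenase, had changes of -0.20, -0.71, -0.64 and -0.30 and the chorismate mutase CM3 of -0.71, -0.26, -0.42 and 0.00, which passed in C24 alone.

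Of 11 genes for enzymes that use tryptophan or make indolic products, 6, 8, 6 and 6 rose and 1, 2, 2 and 1 fell, with medians of 1.01, 1.40, 0.94 and 0.68. CYP71A12, a P450 that makes indole nitriles, rose by 5.58, 9.05, 8.60 and 9.06 and PAD3, the last enzyme of camalexin synthesis, by 5.55, 8.69, 8.06 and 7.81. TAR2, an aminotransferase of auxin synthesis from tryptophan, fell in all lines (-1.17, -2.05, -1.86 and -1.52), and the related TAA1 had changes of 0.28, -0.58, -0.57 and 0.08, passing in Te and CT101. Of 3 MYB regulators of indole glucosinolate genes, MYB51 (3.98, 5.06, 4.92 and 4.87) and MYB122 (5.09, 9.36, 8.54 and 7.38) rose and MYB34 fell (-1.73, -1.75, -2.05 and -1.93) in all 4 lines. MYB122 had a mean of 0.104 CPM in controls.

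**Figure D4:**
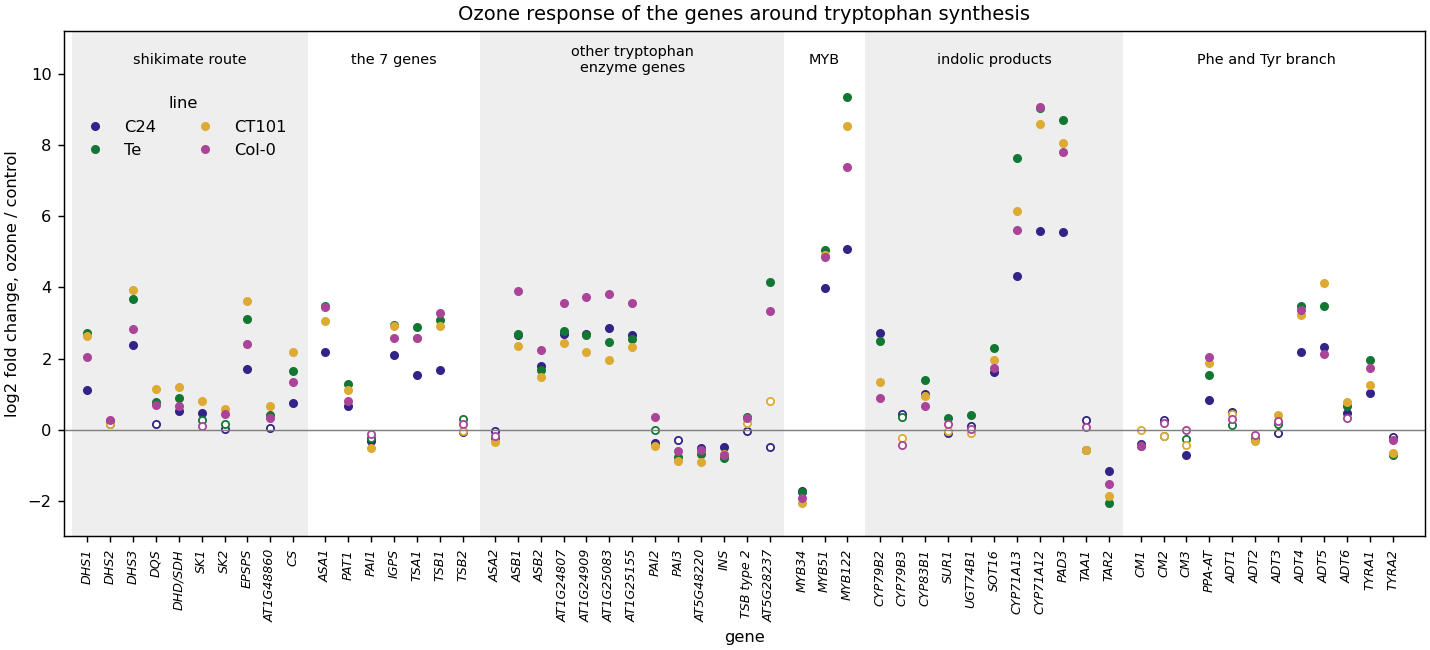
Log2 fold change of ozone against control for each gene of the lists in each line, with filled points where the adjusted p was under 0.05. Points of DHS1, DHS3, EPSPS, ASA1, IGPS, TSA1, TSB1 and the beta subunit genes of anthranilate synthase lie above 1 in all lines. So do those of ADT4, ADT5, TYRA1, SOT16, CYP71A13, CYP71A12, PAD3, MYB51 and MYB122, and those of MYB34 and TAR2 lie below -1.

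Across the 24 libraries ASA1, IGPS, TSA1 and TSB1 followed each other, with Pearson correlations of log2 CPM from 0.968 to 0.991. PAT1 followed them at 0.893 to 0.923, TSB2 correlated with TSB1 at 0.255, and PAI1 with the others at -0.341 to 0.0061. These libraries share treatment and line, so the values describe likeness and carry no test. The mean of the 7 standardised profiles correlated with PAI1 at -0.06 and with TSB2 at 0.46. With the other genes it correlated at 0.87 (PAT1) to 0.97 (ASA1), so it mostly follows the genes that rose. The genes most like the mean of the 7 standardised profiles were the nicotinate transporter gene NiaP (0.983), the jasmonate repressor genes JAZ10 (0.983) and JAZ5 (0.982), the jasmonate synthesis genes OPCL1 (0.982) and AOC3 (0.975), and AT1G77420 (0.979), AT1G18900 (0.975) and NHL8 (0.974). Of 16626 genes compared, 304 reached a correlation of 0.95.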

How the data were processed

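Per the labels' protocols, the 24 libraries (8 groups of 3) of pooled rosettes were made by the TruSeq RNA v2 kit. The deposited values are whole-number counts per locus, unnormalized, in 1 table per library. Per the submitters' processing notes, FastQC, Bowtie2, SAMtools and HTSeq were used on TAIR10, and versions, strand setting and read length are not given in the sources used here. Totals were 13633768 to 25789925 counts, so the least counted gene of the 7 had 208 counts. No 2 libraries held identical values.

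The analysis used edgeR 4.0.16 under R 4.3.3. Genes were kept by filterByExpr (minimum count 10, minimum total 15), scaled by TMM factors and fitted by the robust quasi-likelihood model with a mean for each group, using all 24 libraries. Each of 16 comparisons was a 2-sided contrast, Benjamini-Hochberg adjusted over 20554 genes and called at an adjusted p under 0.05. Fits were also run on simulated counts in which far fewer genes changed than under ozone here. That run therefore does not vouch for the scaling or the calls in these data. The p-values measure the spread between 3 pooled samples a group. Ratios of counts were tested by exact permutation within lines. Likeness used log2 CPM (prior count 2) of genes with a mean of at least 1. Sequences, exons and symbols came from RefSeq TAIR10.1, in which 31912 of 32399 nuclear loci were found, all overlapping their deposited position. Of these, 56.3% had at least 1 end equal to the deposited one, and 9930 loci had both ends equal. Coordinates of genes are those of the deposited tables, 1-based.

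The 7 genes and the lists were chosen with earlier results of these data known. The text names all 7, and of each list the 2 genes with the largest and the 2 with the smallest mean log2 fold change over the lines, plus any other tryptophan enzyme gene.

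Pairing by replicate number was checked by the correlation of residuals of equally numbered libraries, with a minimum of 0.1. It passed for ozone in C24 (lowest 0.103) and CT101 (0.162), not in Te (0.0404) or Col-0 (0.049), and for all pairs of control groups but CT101 and Col-0 (0.0186). The labels give no shared batch. Alternatives were DESeq2 1.42.0, RLE factors, a replicate block, library totals, no filter, a separate fit of the compared groups, summed copies, omission of each library in turn and of the 4 ozone libraries numbered 2. For the ratios a count of 0.5 was added. The window before 1 of the 7 genes is not reported here.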

Additional observations from a re-analysis of the deposited data

Results flagged for a closer look

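In 7 cases the ozone response of 1 of the 7 genes differed between a line and C24 by edgeR's test of the difference itself, always with the smaller response in C24. For Te the log2 differences were 1.29 for ASA1, 1.34 for TSA1 and 1.41 for TSB1. These 3 passed under every alternative run. For CT101 they were 1.05 for TSA1 and 1.24 for TSB1, and for Col-0 1.26 for ASA1 and 1.62 for TSB1, of which TSB1 in Col-0 passed under every alternative run. The same libraries of C24 enter all 7 cases, and a response depends on the control level too. By edgeR's test ASA1 controls were lower in Col-0 than in C24 (log2 difference -0.94, adjusted p = 0.0041). The ASA1 ozone libraries of Col-0 and C24 overlapped. TSA1 controls were lower in Te than in C24 (-0.60, adjusted p = 0.044), while TSB1 controls passed in no comparison of lines. Ozone replicate 2 of C24 was the lowest ozone library of ASA1, PAT1, IGPS, TSA1 and TSB1, and without it the TSB1 differences were 1.16, 0.97 and 1.36 for Te, CT101 and Col-0. The response was also smaller in C24 for 4, 7 and 0 of the 10 shikimate genes against Te, CT101 and Col-0. For the 13 other tryptophan enzyme genes these counts were 0, 0 and 2. A smaller response in C24 was thus not particular to the 7 genes.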

How the results depend on the processing

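The count of called genes under ozone stayed within 1.5 times in all 4 lines under every alternative, and ASA1, PAT1, IGPS, TSA1 and TSB1 passed in each. For Te against C24 controls (2 called) RLE factors gave 1, library totals 4, no filter 1 and a separate fit 5, and omitting 1 library gave 1 to 4. For Te against Col-0 controls (1) a separate fit and the omission of the 4 ozone libraries numbered 2 gave 2 each, and omitting 1 library gave 0 to 2. CT101 against Col-0 controls (2) ranged from 1 to 3 and the response of Te minus C24 (3) from 3 to 5 when 1 library was omitted. The response of CT101 minus C24 (2) gave 0 in a separate fit, without 1 library 1 to 4, and that of Col-0 minus C24 (2) gave 1 and 1 to 3. In that separate fit ASA1 of Col-0 minus C24 had an adjusted p of 0.14. A separate fit has fewer libraries to estimate the spread from. PAI1 in C24 also lost its call in a separate fit (adjusted p = 0.071) and without the 4 ozone libraries (0.066), and in Te gained one under library totals (log2 fold change -0.37, adjusted p = 0.015). The cause was not tested.

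TSB2, which passed in no line but gained a call for Te in a separate fit (0.32, adjusted p = 0.037), changed sign when 1 library was omitted, with values of -0.226 to 0.070 in C24, -0.182 to 0.055 in CT101 and -0.025 to 0.321 in Col-0. Summed with TSB1 it gave 1.53 and 2.71 in C24 and CT101, a sum made mostly of TSB1. Its response of CT101 minus C24 was -0.012 in a separate fit, -0.026 without the 4 ozone libraries and -0.126 to 0.180 without 1 library. With the replicate block the calls under ozone stayed at 6 for C24 and CT101 and 5 for Te and Col-0. The block gave 3 in place of 2 for Te against C24 controls (PAT1 added), Col-0 against C24 controls (TSA1) and CT101 against Col-0 controls (PAT1). In the response it gave 4 for Te minus C24 (PAT1) and 3 for Col-0 minus C24 (TSA1). The ratio of TSB1 to TSB2 kept its difference of 2.62 in the paired test (exact p = 0.00049). The lowest counts in a library were 208 for PAI1 and 222 for TSB2, and PAI1 is limited by its shared sequence.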
